A study of Homo sapiens with 18 samples.

Results

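The 9 genes described here encode enzymes that remove methyl groups from lysine 9 of histone H3 (H3K9), and their mRNA was measured in 2 human uveal melanoma cell lines after inhibition of the enzymes that add that mark. They are KDM1A, KDM3A, KDM3B, JMJD1C, KDM4A, KDM4B, KDM4C, PHF2 and KDM7A, taken by symbol from the 26475 genes of the deposited count table. All 9 passed the filter on low counts in both lines. Mel92.1 and MP41 cells received UNC0642 at 1 µM or A366 at 1 µM for 48 h, or DMSO (the solvent control, whose time the labels do not give), which gave 6 groups of 3 replicates and 18 libraries. The sources differ on the serum in which MP41 was grown, the labels giving the share used for Mel92.1 and the methods of the study a higher one, so line and serum cannot be told apart. Both compounds are small-molecule inhibitors of EHMT2 (G9a) and of EHMT1 (GLP). Each line stands for the tumor of 1 patient, and the series text calls the replicates biological. JMJD1C, KDM4A and KDM1A overlap annotated antisense genes. The libraries kept the strand, but whether counting used it is not given in the sources used here, so reads of the partners may be part of their counts.

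H3K9 methylation is a mark of silent chromatin. EHMT2 and EHMT1 place mono- and dimethylation, SUV39H1, SUV39H2 and SETDB1 place trimethylation, and chromodomain proteins such as CBX5 bind the methylated tail. Demethylases take the mark off. KDM1A (LSD1) is a flavin-dependent oxidase that works with the CoREST corepressor, while the other members carry a Jumonji domain and need iron, oxygen and 2-oxoglutarate. The KDM3 enzymes (KDM3A, KDM3B, JMJD1C) act on mono- and dimethylated H3K9, the KDM4 enzymes (KDM4A, KDM4B, KDM4C) on di- and trimethylated H3K9 and on H3K36, and PHF2 and KDM7A belong to the PHD finger group. KDM3A, KDM4B and KDM4C are also known as genes that hypoxia induces.

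Before any result, 4 libraries needed a decision. The libraries labelled A366 replicates 2 and 3 of Mel92.1 and of MP41 go against their labels. The per-replicate values that the study published list them under the other line, and the values below follow that placement. Of 20 genes with at least 20 CPM in every DMSO library of Mel92.1 and at most 0.05 CPM in those of MP41, the summed level in the 2 libraries labelled Mel92.1 was 0.0124% and 0.0348% of that in Mel92.1 with DMSO. In the 2 libraries labelled MP41 it was 95.2% and 110.2%. The counts of members and of list genes with A366 are given as placed, as labelled and without these 4 libraries, while the values of single list genes are as placed. The common coefficient of variation between replicates was 0.175 in Mel92.1 and 0.109 in MP41 as placed, and 0.401 and 0.365 as labelled.

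The libraries held between 23601156 and 62941462 counts, and the shallowest was Mel92.1 UNC0642 replicate 1, where 32.8% of the counts fell on 4 ribosomal RNA genes. All 7 melanocyte markers were detected at 1 CPM or more in every group, and the summed level of 6 leukocyte markers did not exceed 1.08 CPM in any library. Of 5 fibroblast markers, 2 or 3 reached 1 CPM in a group and their summed level ran from 23.1 to 54.3 CPM. Of 4 markers of surface epithelium, at most 1 reached 1 CPM in a group. In bulk RNA, fewer cells of a type and less RNA per cell cannot be told apart. CPM is a library's count of a gene scaled to a common depth over the 18 libraries. The adjusted p-values are those of edgeR (quasi-likelihood test, Benjamini-Hochberg, every gene of the comparison included), and the threshold was 0.05.

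The members were present at very different levels. Compared per kilobase of the longest annotated transcript, KDM1A stood highest in both lines with DMSO, at 39.9 ± 1.43 CPM per kb in Mel92.1 and 45.2 ± 1.79 in MP41 (SD, n = 3). In MP41 the order after it was KDM3A (17.1), KDM3B (14.7), KDM4A (7.78), JMJD1C (6.23), KDM4B (5.87), KDM4C (4.62), PHF2 (4.55) and KDM7A (1.40 CPM per kb). The ranges of JMJD1C and KDM4B overlapped there, as did those of KDM4C and PHF2. In Mel92.1 the order was KDM3B (13.3), KDM4A (8.40), KDM4B (7.72), PHF2 (5.55), KDM3A (3.21), JMJD1C (2.00), KDM4C (1.56) and KDM7A (0.484 CPM per kb), and the neighbours KDM4A and KDM4B, and JMJD1C and KDM4C, overlapped. KDM3A thus held the second place in MP41 and the sixth in Mel92.1, while KDM7A was last in both.

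**Figure D1:**
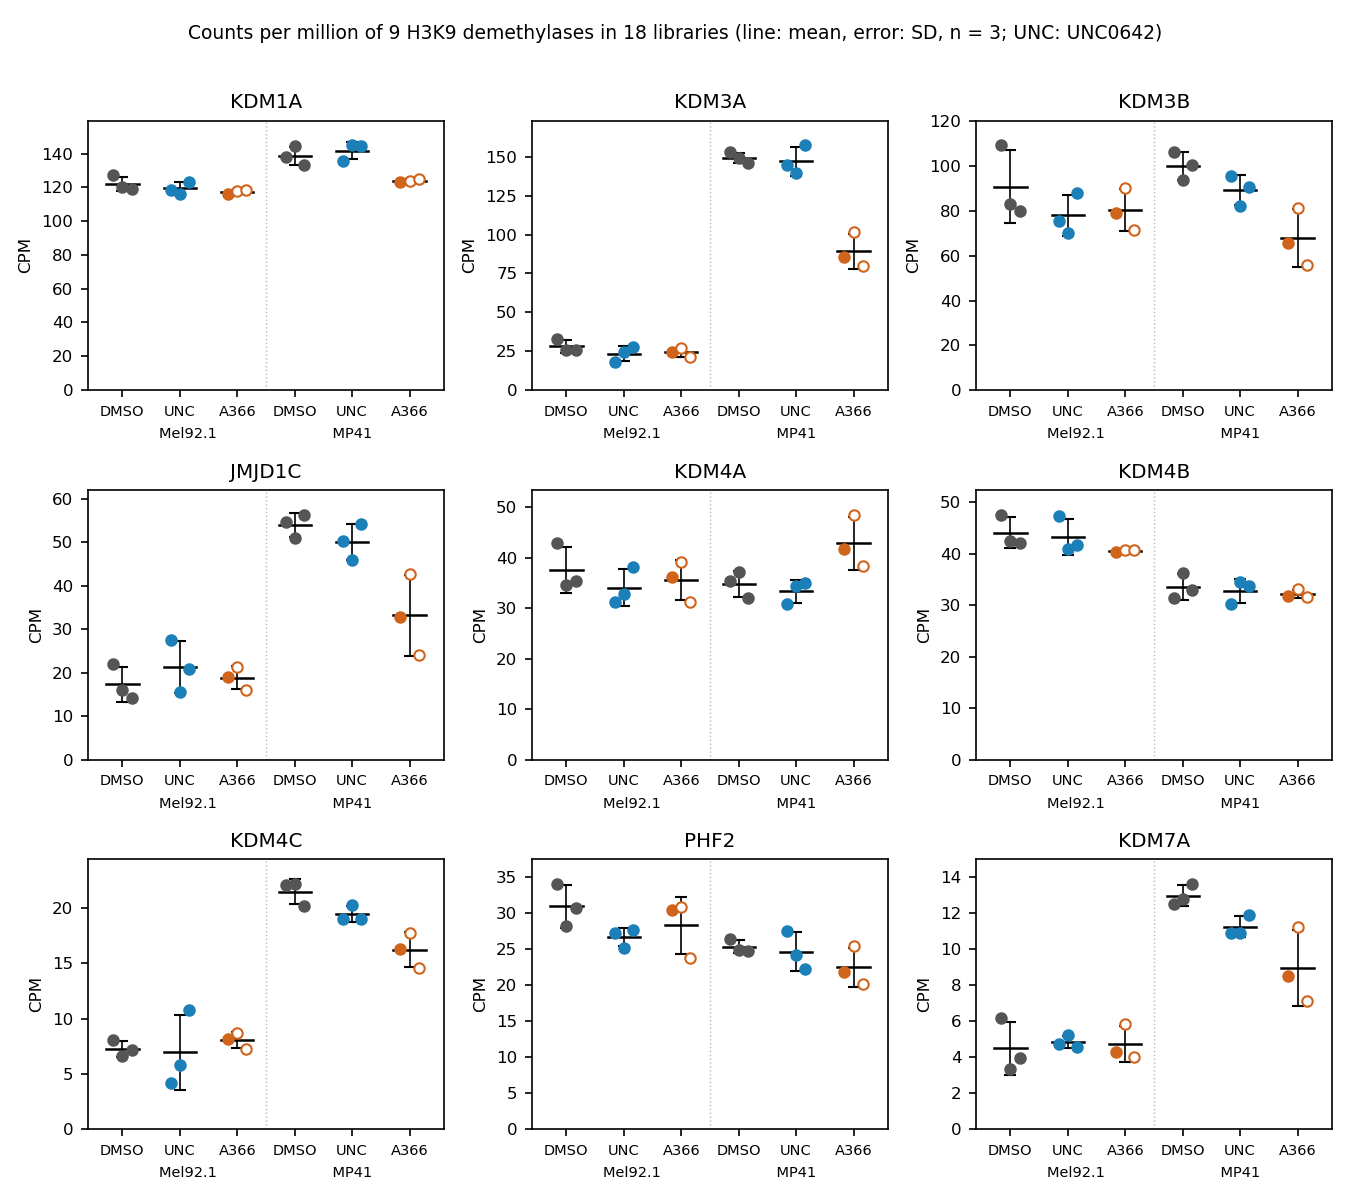
Level of each H3K9 demethylase in every library. The vertical axis is CPM from 0 and the horizontal axis the 6 groups, points are libraries in the order of replicates 1 to 3, the long line is the mean and the error bar the SD (n = 3), and open points are the 4 libraries placed against their labels. KDM3A lay between 18.2 and 32.9 CPM in all libraries of Mel92.1, while in MP41 it lay between 139 and 158 CPM with DMSO or UNC0642 and between 79.5 and 102 CPM with A366.

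Between the untreated lines, KDM3A, JMJD1C, KDM4C and KDM7A were lower in Mel92.1 by 2.88-fold to 5.31-fold, KDM1A was slightly lower, and KDM4B and PHF2 were slightly higher. That made 7 of 9 members past the threshold, 5 lower and 2 higher in Mel92.1, where 69.4% of all 15799 genes tested were past it (34.8% lower and 34.5% higher). The share among the members was near that of all genes. The median log2 difference of the members was -0.18, beside -0.02 over all genes tested. These values come from 1 fit of the 18 libraries.

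KDM3A, which demethylates H3K9 in hormone and hypoxia responses, held 32.9, 25.7 and 25.7 CPM in the Mel92.1 DMSO libraries and 152.8, 149.1 and 145.9 CPM in those of MP41. The groups were far apart. Its log2 difference was -2.41 ± 0.13 (SE), a 5.31-fold lower level in Mel92.1 (adjusted p = 6.3e-11). Its relative JMJD1C had 21.9, 15.9 and 14.1 CPM in Mel92.1 and 54.5, 51.0 and 56.3 CPM in MP41. That gave a log2 difference of -1.64 ± 0.21, or 3.11-fold (adjusted p = 2.0e-06), and the 3 libraries of each line did not overlap. The third gene of that family, KDM3B, had 109.4, 83.1 and 80.0 CPM in Mel92.1 and 106.2, 93.7 and 100.6 CPM in MP41. These ranges overlapped, and the difference of -0.14 (95% interval -0.43 to 0.15) was not past the threshold.

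The KDM4 family was split as well. KDM4C measured 8.04, 6.65 and 7.14 CPM in Mel92.1 against 22.1, 22.2 and 20.2 CPM in MP41, a log2 difference of -1.56 ± 0.21, or 2.95-fold (adjusted p = 5.0e-06). KDM4B went the other way, with 47.6, 42.5 and 42.1 CPM in Mel92.1 and 31.4, 36.3 and 32.9 CPM in MP41. Its log2 difference was 0.40 ± 0.081, or 1.32-fold higher in Mel92.1 (adjusted p = 0.00034). KDM4A, at 42.8, 34.6 and 35.4 CPM against 35.3, 37.1 and 32.0 CPM, overlapped between the lines (log2 difference 0.11, 95% interval -0.13 to 0.35). With library size as the only scaling, KDM4A took the opposite sign (-0.09) and KDM4B was no longer past the threshold.

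KDM7A, a demethylase of H3K9 and H3K27 with a PHD finger, was the scarcest member. It had 6.16, 3.33 and 3.97 CPM in Mel92.1 and 12.5, 12.8 and 13.6 CPM in MP41 (log2 difference -1.53 ± 0.21, or 2.88-fold, adjusted p = 5.2e-06). PHF2, which works in a complex with ARID5B, had 34.0, 28.1 and 30.7 CPM in Mel92.1 and 26.4, 24.9 and 24.7 CPM in MP41. The lines did not overlap, but the log2 difference of 0.29 ± 0.12 was close to the threshold (adjusted p = 0.034), and it was lost with groups as labelled, with another scaling, with the GC and length offset, and without Mel92.1 DMSO replicate 1, MP41 DMSO replicate 2 or MP41 DMSO replicate 3. The GC and length offset was fitted after the mean of each line was subtracted. It therefore cannot correct a GC or length trend between the lines. KDM1A had 127, 120 and 119 CPM in Mel92.1 and 138, 144 and 133 CPM in MP41 (log2 difference -0.18 ± 0.052, adjusted p = 0.0051).

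**Figure D2:**
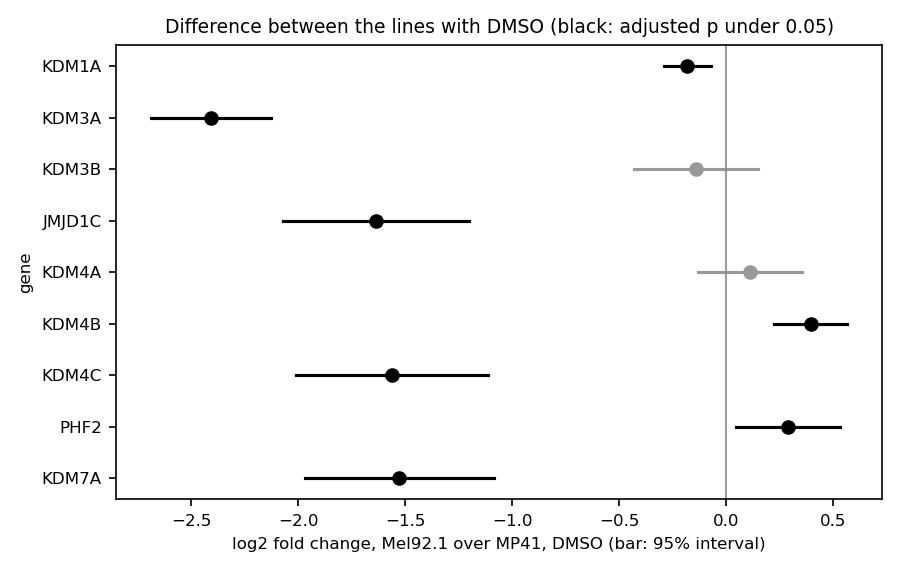
Difference between the lines with DMSO for each member. The horizontal axis is the log2 fold change of Mel92.1 over MP41 with its 95% interval, and black marks members past an adjusted p of 0.05. KDM3A (-2.41), JMJD1C (-1.64), KDM4C (-1.56) and KDM7A (-1.53) stand apart from the other 5 members, which lie between -0.18 and 0.40.

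The promoters of these 4 genes are shown because the genes shared the largest difference between the lines. In GENCODE on GRCh38, KDM3A lies on chr2:86440647-86492716 (+), JMJD1C on chr10:63167221-63521850 (-), KDM4C on chr9:6720863-7175648 (+) and KDM7A on chr7:140084746-140177035 (-). The sequences are the RefSeq windows of 300 bases around an annotated start (250 before and 50 after, GRCh38.p14), written 5′ to 3′ on the strand of the gene. Capitals mark ACGTG on either strand (CACGT on the other), the core to which hypoxia-inducible factor can bind, and CACGTG, the E-box that MITF and MYC can bind, always holds that core on both strands.
KDM3A chr2:86441211-86441510 (+): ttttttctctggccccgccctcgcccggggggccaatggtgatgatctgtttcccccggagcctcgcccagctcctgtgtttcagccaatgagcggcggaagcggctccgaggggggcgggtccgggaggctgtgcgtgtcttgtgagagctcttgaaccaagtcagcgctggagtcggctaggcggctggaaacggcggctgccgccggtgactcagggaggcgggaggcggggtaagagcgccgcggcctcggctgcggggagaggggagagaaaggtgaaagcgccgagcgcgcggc
JMJD1C chr10:63521841-63522140 (-): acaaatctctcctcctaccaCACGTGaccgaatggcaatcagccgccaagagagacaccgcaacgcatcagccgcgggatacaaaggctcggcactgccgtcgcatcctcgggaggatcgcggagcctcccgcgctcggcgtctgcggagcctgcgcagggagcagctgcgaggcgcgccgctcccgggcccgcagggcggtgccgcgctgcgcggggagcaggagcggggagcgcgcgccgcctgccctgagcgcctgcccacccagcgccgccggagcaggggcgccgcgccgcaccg
KDM4C chr9:6757723-6758022 (+): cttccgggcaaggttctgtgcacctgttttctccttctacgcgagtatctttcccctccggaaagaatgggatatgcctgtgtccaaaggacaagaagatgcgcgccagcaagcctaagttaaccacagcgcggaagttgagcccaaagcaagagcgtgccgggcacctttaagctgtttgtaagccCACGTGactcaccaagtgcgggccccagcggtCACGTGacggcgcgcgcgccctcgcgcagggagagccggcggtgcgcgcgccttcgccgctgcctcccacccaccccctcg
KDM7A chr7:140176934-140177233 (-): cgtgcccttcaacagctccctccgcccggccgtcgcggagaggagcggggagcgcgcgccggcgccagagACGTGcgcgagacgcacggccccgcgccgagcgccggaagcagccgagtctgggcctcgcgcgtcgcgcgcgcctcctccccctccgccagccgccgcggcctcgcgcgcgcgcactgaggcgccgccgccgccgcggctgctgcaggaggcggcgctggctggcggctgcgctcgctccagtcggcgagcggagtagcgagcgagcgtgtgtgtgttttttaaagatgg
The KDM4C window holds the core 4 times, counting both strands, in 2 copies of CACGTG, the JMJD1C window shown holds 1 CACGTG while the other 2 windows of JMJD1C hold none of these letters, KDM7A has a single core and KDM3A none of these letters in either of its 2 overlapping windows. Over all 12 windows of the 9 members, 5 held ACGTG and 3 held CACGTG (those of KDM4C, JMJD1C and KDM4B), beside 21.4% and 7.26% of the 35116 promoters in the RefSeq table. KDM4B, which was higher in Mel92.1, thus carried the same letters as genes that were lower there. The median GC content over all promoters in that table was 58.7%. Every window of the members except 1 of JMJD1C was richer in GC, for example 62.7% for KDM4C and 83.7% for PHF2, whose window held no ACGTG. Both motifs contain CG, so the shares over all promoters are not matched for base composition. Whether the members held more of these letters than promoters of like GC content was not tested. A match is a description of the sequence and no binding was measured.

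Genes that hypoxia is known to induce were mostly lower in Mel92.1, as were KDM3A and KDM4C, while KDM4B was higher there. Of 14 such genes listed, 13 were tested, 10 were lower and 2 higher in Mel92.1 with DMSO, beside 34.8% of all genes lower and 34.5% higher. Their median log2 difference was -1.31, beside -0.02 over all genes. PDK1 averaged 15.2 CPM in Mel92.1 and 76.9 CPM in MP41, and its log2 difference was -2.34. BNIP3, a mitophagy receptor, averaged 69.1 and 139.6 CPM (-1.01). Its relative BNIP3L, at 83.2 and 73.0 CPM, was 1 of the 2 that were higher in Mel92.1 (0.19). The part of hypoxia in these differences was not tested. Of 10 genes that write H3K9 methylation or serve the writers, 6 were higher in Mel92.1 and 2 lower (median 0.53), so that 8 of 10 were past the threshold beside 69.4% of all genes. EHMT1 averaged 86.7 ± 6.58 CPM in Mel92.1 and 39.9 ± 1.12 CPM in MP41 (log2 difference 1.12), whereas EHMT2 averaged 107 ± 1.60 and 98.5 ± 3.01 CPM (0.12, not past the threshold).

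UNC0642 left no member past the threshold in either line. In Mel92.1 it was 0 of 9, where 0.688% of 14528 genes were past it, and the log2 changes ran from -0.26 (KDM3A) to 0.28 (JMJD1C). The widest 95% intervals were those of KDM4C (-0.70 to 0.59) and KDM7A (-0.48 to 0.68). KDM3A held 18.2, 24.6 and 27.5 CPM with UNC0642, KDM4C 4.19, 5.83 and 10.8 CPM, and JMJD1C 27.4, 15.6 and 20.9 CPM. Replicate 1, the shallow library, gave the lowest KDM3A and KDM4C and the highest JMJD1C. The remaining changes were -0.22 for KDM3B, -0.22 for PHF2, -0.15 for KDM4A, -0.04 for KDM1A, -0.03 for KDM4B and 0.10 for KDM7A.

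In MP41, UNC0642 again gave 0 of 9, with 0.241% of 14956 genes past the threshold. The log2 changes ran from -0.21 (KDM7A) to 0.03 (KDM1A), and the intervals of all 9 stayed between -0.52 and 0.23. KDM3A, at 144.9, 139.3 and 157.5 CPM, changed by -0.02 (95% interval -0.22 to 0.17). KDM3B changed by -0.17, KDM4C by -0.15, JMJD1C by -0.11, KDM4A by -0.07 and KDM4B and PHF2 by -0.04 each. In both lines 0 members had an unadjusted p under 0.05, and the DESeq2 Wald test called 0 as well. The response of a member to UNC0642 did not differ detectably between the lines (0 of 9, where 0.601% of genes were past the threshold, 0 at an unadjusted p under 0.05 and 0 by DESeq2). The differences, Mel92.1 minus MP41, were 0.39 for JMJD1C, 0.31 for KDM7A, 0.11 for KDM4C, 0.0031 for KDM4B, -0.06 for KDM3B, -0.07 for KDM1A, -0.08 for KDM4A, -0.18 for PHF2 and -0.23 for KDM3A. Their 95% intervals reached from -0.63 to 1.00.

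A366 in Mel92.1 also gave 0 of 9, with 0.213% of genes past the threshold, 0 members at an unadjusted p under 0.05 and 0 by DESeq2. The log2 changes were -0.22 for KDM3A, -0.18 for KDM3B, -0.13 for PHF2, -0.12 for KDM4B, -0.08 for KDM4A, -0.05 for KDM1A, 0.07 for KDM7A, 0.12 for JMJD1C and 0.14 for KDM4C. The 95% intervals of the 9 members reached from -0.58 to 0.78. KDM3A measured 24.4, 27.1 and 21.1 CPM, within the range of UNC0642 and overlapping DMSO. As labelled, the count was 0 of 9 too, and 0.0% of 14692 genes were past the threshold (3549 at an unadjusted p under 0.05), but KDM3A then stood at 1.30, KDM4C at 0.90, KDM7A at 0.76 and JMJD1C at 0.73, since 2 of the 3 libraries held the levels of MP41. Without the 4 libraries the count was 0 of 9, with 0.0% of genes past the threshold, 0 members at an unadjusted p under 0.05 and KDM3A at -0.21. A366 and UNC0642 did not differ for any member in Mel92.1 (0 of 9 with 0.165% of genes past the threshold, 0 at an unadjusted p under 0.05, 0 by DESeq2), and the log2 differences were 0.20 for KDM4C, 0.09 for PHF2, 0.06 for KDM4A, 0.05 for KDM3B, 0.04 for KDM3A, -0.02 for KDM1A, -0.03 for KDM7A, -0.08 for KDM4B and -0.16 for JMJD1C. Their 95% intervals reached from -0.65 to 0.84. As labelled and without the 4 libraries this count was 0 of 9 as well, with 0.0% of genes past the threshold in each.

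A366 in MP41 was the treatment in which members moved. KDM3A, JMJD1C, KDM3B, KDM7A, KDM4C and KDM1A fell, KDM4A rose, and KDM4B and PHF2 were not past the threshold. These 7 of 9 stood beside 46.0% of all 14956 genes, 22.5% higher and 23.5% lower. The members' median log2 change was -0.43, beside 0.02 over all genes.

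All 3 genes of the KDM3 family fell. KDM3A went from 152.8, 149.1 and 145.9 CPM with DMSO to 85.9, 101.9 and 79.5 CPM with A366. The groups did not overlap, and the log2 change was -0.77 ± 0.090, a 1.70-fold lower level (adjusted p = 0.00024). JMJD1C went from 54.5, 51.0 and 56.3 CPM to 32.9, 42.7 and 24.0 CPM (-0.72 ± 0.16, adjusted p = 0.0032), and KDM3B from 106.2, 93.7 and 100.6 CPM to 65.9, 81.5 and 55.9 CPM (-0.59 ± 0.12, adjusted p = 0.0022). In each of the 3 genes the A366 libraries kept the same order, with replicate 2 nearest to DMSO and replicate 3 farthest. KDM7A followed that order, at 8.49, 11.2 and 7.13 CPM after 12.5, 12.8 and 13.6 CPM with DMSO (-0.56 ± 0.14, adjusted p = 0.0077). Replicate 2 was also the highest and replicate 3 the lowest for KDM4A, KDM4B, KDM4C and PHF2, but not for KDM1A. The order was thus not particular to the KDM3 family.

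The KDM4 genes diverged. KDM4C fell from 22.1, 22.2 and 20.2 CPM to 16.3, 17.8 and 14.6 CPM (log2 change -0.43 ± 0.091, adjusted p = 0.0028). KDM4A rose from 35.3, 37.1 and 32.0 CPM to 41.7, 48.5 and 38.3 CPM (0.27 ± 0.098, adjusted p = 0.038). KDM4B stayed between 31.4 and 36.3 CPM with DMSO and between 31.5 and 33.1 CPM with A366 (-0.08, 95% interval -0.26 to 0.09). KDM1A held 138, 144 and 133 CPM with DMSO and 123, 124 and 125 CPM with A366, a small fall with tight replicates (-0.18 ± 0.060, adjusted p = 0.026). PHF2, at 21.8, 25.4 and 20.2 CPM with A366, overlapped DMSO (-0.20, 95% interval -0.42 to 0.03), and it was past the threshold at -0.30 without MP41 A366 replicate 2. Several calls depended on the fit. With all 18 libraries in 1 fit 4 of 9 were past the threshold (33.5% of genes), KDM4A, KDM4C and KDM7A being lost, and with the GC and length offset and the replicate block 5 of 9 were (31.9%), JMJD1C and KDM7A being lost. KDM1A was lost without MP41 DMSO replicate 1, MP41 DMSO replicate 2 or MP41 A366 replicate 1, and KDM4A without MP41 A366 replicate 1, MP41 A366 replicate 2, MP41 DMSO replicate 1 or MP41 DMSO replicate 3, and also with library size as the only scaling.

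**Figure D3:**
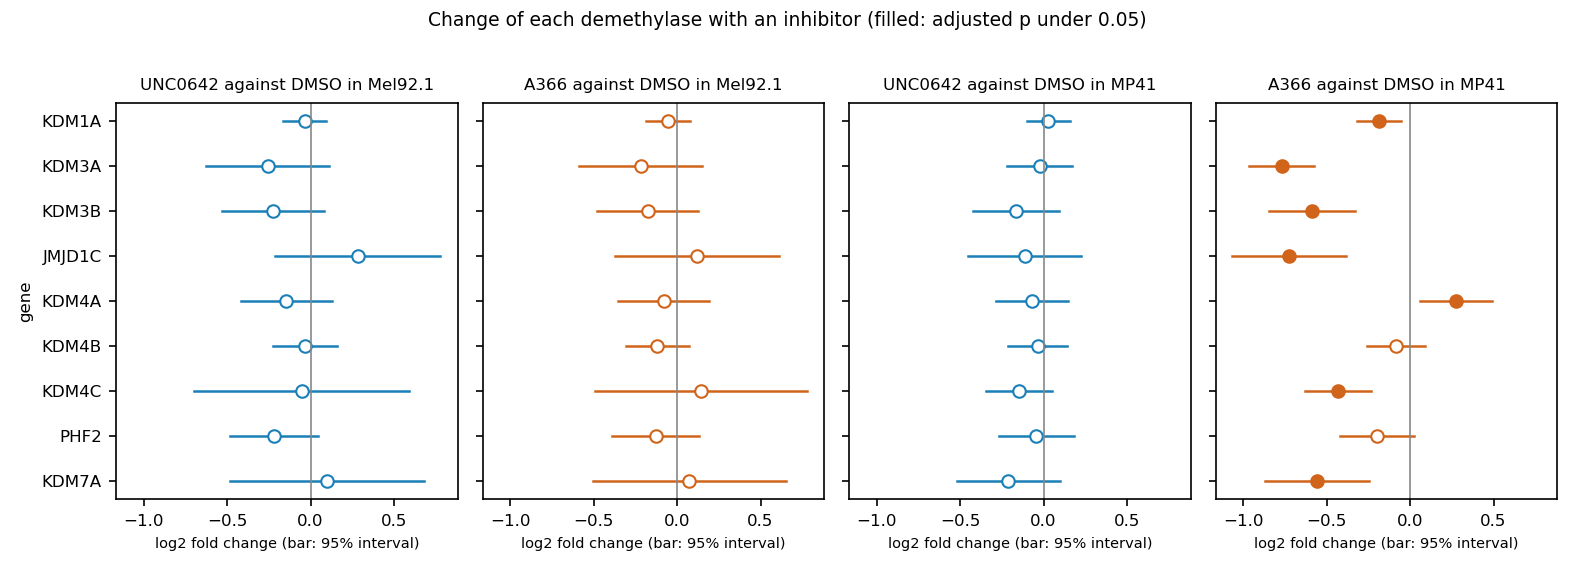
Change of each member with each inhibitor in each line. The horizontal axis is the log2 fold change against DMSO with its 95% interval, and filled points are past an adjusted p of 0.05. All points of the first 3 panels are open, and A366 in MP41 has 7 filled points, from -0.77 (KDM3A) to 0.27 (KDM4A).

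The placement of the libraries changed the size of these falls. As labelled, 4 of 9 members were past the threshold (32.8% of 15088 genes), namely KDM3A at -1.75, JMJD1C at -1.20, KDM7A at -1.08 and KDM4C at -0.998, and these are the members with the lower level in Mel92.1, from which 2 of the 3 libraries labelled MP41 come under the placement. KDM3B (-0.39), KDM1A (-0.20) and KDM4A (0.11) were not past it, and KDM4B (0.19) and PHF2 (0.02) took the opposite sign. Without the 4 libraries, A366 replicate 1 alone stood for the treatment and its spread was taken from the other groups. Then 6 of 9 members were past the threshold (35.7% of 15890 genes), with KDM3A at -0.84, JMJD1C at -0.76, KDM3B at -0.65, KDM7A at -0.65, KDM4C at -0.44 and KDM1A at -0.21, while KDM4A at 0.22 was not.

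The change in this comparison went with the length and GC content of a gene. Across 14450 genes the change correlated with GC content (Spearman's rho 0.46) and with transcript length (rho -0.47), a description across genes that share the same libraries. Genes whose longest transcript is under 2000 nt had a median change of 0.33, and those of 8000 nt or more had a median of -0.39. KDM3A (8741 nt, 42.5% GC), JMJD1C (8666 nt, 39.9% GC) and KDM7A (9272 nt, 38.5% GC) are in the longest class and low in GC. KDM3B (6813 nt, 50.7% GC), which fell by 0.59, is in neither class, and the median change was -0.29 for genes of 6000 to 8000 nt and 0.11 for genes of 50% to 55% GC. KDM4B (5703 nt, 61.2% GC) and PHF2 (5569 nt, 56.4% GC) are shorter and rich in GC. KDM1A (3059 nt, 50.8% GC) changed by -0.18, while the median change was 0.10 for genes of 2000 to 4000 nt. For genes of 4000 to 6000 nt the median was -0.11. In that class KDM4C (4655 nt, 47.2% GC) changed by -0.43 and KDM4A (4474 nt, 50.7% GC) by 0.27. A GC and length offset was fitted to each library, treated ones included. It takes out any change that follows these properties, whatever its source. With this offset, 6 of 9 members were past the threshold, where 35.0% of genes were. KDM3A then stood at -0.36, JMJD1C at -0.28, KDM3B at -0.43, KDM4C at -0.34, KDM1A at -0.30 and KDM4A at 0.28, while KDM7A at -0.08 was no longer past it (adjusted p = 0.50). The share of counts on ribosomal RNA genes was 3.31% to 5.10% with DMSO and 5.93% to 10.96% with A366 in MP41, and its part in these changes was not tested.

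**Figure D4:**
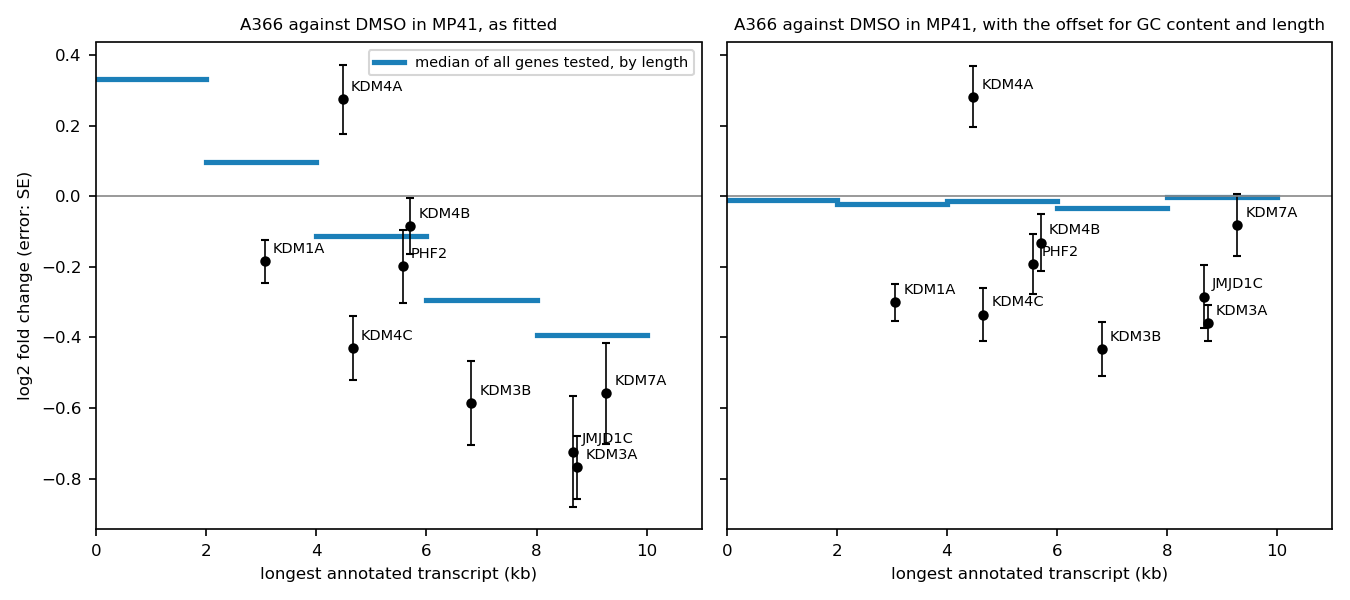
Change of each member with A366 in MP41 against the length of its longest annotated transcript (kb), as fitted and with an GC and length offset. Points are members with their SE, and blue lines give the median log2 fold change of all genes tested in 5 classes of length, the last of which is drawn to 10 kb and holds all longer genes. As fitted, the medians run from 0.33 to -0.39, KDM3A stands at -0.77 and KDM7A at -0.56, while with the offset they stand at -0.36 and -0.08.

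Against UNC0642 in place of DMSO, A366 in MP41 gave a like set of values from the same A366 libraries. KDM3A (-0.74), JMJD1C (-0.61), KDM3B (-0.42), KDM4C (-0.28) and KDM1A (-0.21) were lower with A366, and KDM4A (0.34) was higher. That made 6 of 9, where 43.1% of genes were past the threshold (21.1% higher and 22.0% lower). KDM7A (-0.35, adjusted p = 0.069), PHF2 (-0.16) and KDM4B (-0.05) were not. Without MP41 A366 replicate 1 the count fell to 3 of 9 (KDM3A, JMJD1C and KDM4A, with 29.3% of genes past the threshold), and without MP41 A366 replicate 2 it rose to 8 of 9 (KDM7A and PHF2 were added, with 50.7%). With the GC and length offset it was 4 of 9, JMJD1C and KDM4C being lost (35.4% of genes). As labelled it was 4 of 9 (KDM3A -1.72, JMJD1C -1.09, KDM7A -0.87, KDM4C -0.85, with 31.0% of genes past the threshold), and without the 4 libraries 5 of 9 (KDM3A -0.82, JMJD1C -0.65, KDM3B -0.48, KDM7A -0.44, KDM1A -0.24, with 34.4%). The A366 and UNC0642 libraries of MP41, at the same dose and time, thus differed for these members. No such difference was detected in Mel92.1, and whether the contrast differs between the lines was not tested. Across genes the contrast in MP41 also went with GC content (Spearman's rho 0.42) and transcript length (rho -0.45). Ribosomal RNA genes took 3.55% to 5.14% of the counts with UNC0642 in MP41 and 5.93% to 10.96% with A366. The part of this share was not tested.

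Whether the response to A366 differed between the lines was tested as an interaction in the fit of all 18 libraries. No member passed (0 of 9, with 13.8% of all genes past the threshold), although 3 had an unadjusted p under 0.05. The difference, Mel92.1 minus MP41, was 0.82 for JMJD1C (95% interval 0.20 to 1.43, adjusted p = 0.070), 0.53 for KDM3A (0.13 to 0.92, adjusted p = 0.070), 0.61 for KDM7A, 0.55 for KDM4C, 0.39 for KDM3B, 0.10 for KDM1A, 0.04 for PHF2, -0.06 for KDM4B and -0.38 for KDM4A. DESeq2 called JMJD1C and KDM3A, where it called 22.1% of all genes. Without Mel92.1 DMSO replicate 1 the count was 4 of 9 (JMJD1C, KDM3A, KDM3B, KDM7A, with 24.1% of genes past the threshold), without MP41 A366 replicate 2 it was 3 of 9 (JMJD1C, KDM3A, KDM3B, with 23.2%) and without Mel92.1 A366 replicate 3 it was 2 of 9 (JMJD1C, KDM3A, with 17.7%). As labelled, 5 of 9 passed (49.4% of genes), with KDM3A at 3.03, JMJD1C at 1.93, KDM4C at 1.89, KDM7A at 1.84 and KDM4B at -0.51, and without the 4 libraries 0 of 9 did (1.24% of genes, 2 members at an unadjusted p under 0.05).

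The enzymes and partners around the members were counted in the same way for A366 in MP41, beside the 22.5% of all genes that were higher and the 23.5% that were lower. Counts with the offset, here and in the paragraphs that follow, stand beside the 35.0% of all genes past the threshold in that fit. The next list held 16 other histone lysine demethylases and close Jumonji relatives, called the other demethylases below. Of these 15 were tested, 7 fell and 0 rose (median log2 change -0.23). HR (hairless), a Jumonji protein that acts on H3K9, fell by 0.82, KDM5A, which demethylates H3K4, fell by 0.48, and KDM1B, the second LSD1-type enzyme, fell by 0.45. With the offset 5 of the 15 fell and 1 rose. Among the genes that write H3K9 methylation, 4 of 10 fell and 1 rose. ATF7IP, a partner of SETDB1, fell by 0.66, PRDM2 by 0.59 and ZNF644, a zinc finger partner of EHMT2, by 0.49. EHMT2, the target of the inhibitors, was the one that rose, from 95.97, 97.7 and 101.8 CPM to 116, 117 and 118 CPM (0.23), and with the offset its change was 0.06 and not past the threshold. EHMT1 changed by -0.12, which was not past it.

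In the CoREST complex through which KDM1A acts, 6 of 12 tested genes fell and 1 rose (median -0.23). ZMYM2 fell by 0.62, GSE1 by 0.44 and RCOR1, the CoREST scaffold itself, by 0.39, and with the offset 4 fell and 1 rose. ARID5B, the partner of PHF2, changed by -0.25 and was not past the threshold. Of 18 genes that make or use 2-oxoglutarate, succinate or fumarate, which feed or restrain the Jumonji enzymes, 6 rose and 1 fell. D2HGDH, which clears D-2-hydroxyglutarate, rose by 0.58 and OGDHL rose by 0.48. With the offset 5 of the 18 rose and 4 fell. The cytosolic dehydrogenase IDH1, which makes 2-oxoglutarate, was the only gene of these lists outside the melanocyte markers past the threshold with UNC0642, in Mel92.1, where it rose by 0.59. With A366 in Mel92.1 and with UNC0642 in MP41, no gene of these demethylase, writer, CoREST or 2-oxoglutarate lists was past the threshold.

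Among the 13 tested hypoxia targets, 6 fell and 1 rose with A366 in MP41 (median -0.15), and with the offset 9 were lower and 2 higher. PDK1 fell by 1.16, BNIP3 by 0.79 and BNIP3L by 0.56. Of 7 tested readers of H3K9 methylation, 3 fell and 1 rose. UHRF1, which links H3K9 methylation to DNA methylation, fell by 0.45 and CBX5 (HP1 alpha) fell by 0.42, while MPHOSPH8, a subunit of the HUSH silencing complex, rose by 0.37. Of the 7 melanocyte markers, 3 rose and 3 fell with A366 in MP41, PMEL among the first (0.42) with MLANA (0.31). With UNC0642, TYR (0.49) and MLANA (0.34) rose in Mel92.1 and DCT (0.62) rose in MP41. Of 3 tested fibroblast markers, COL1A1 (-0.43) and LUM (-0.26) fell with A366 in MP41. With the offset, 2 readers fell and 1 rose, 2 melanocyte markers rose and 2 fell, and 1 fibroblast marker fell and 0 rose. The part of these marker changes in the members' values was not tested.

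The list counts as labelled stand beside 32.8% of all genes past the threshold, and the share without the 4 libraries is given with the members above. As labelled, the counts for A366 in MP41 were 3 higher and 5 lower for the other demethylases, 1 and 2 for the writers, 1 and 3 for CoREST, 3 and 0 for the 2-oxoglutarate genes, 0 and 5 for the hypoxia targets, 1 and 1 for the readers, 1 and 1 for the melanocyte markers and 0 and 0 for the fibroblast markers. Without the 4 libraries they were 0 and 6 for the other demethylases, 0 and 4 for the writers, 1 and 5 of 13 for CoREST, 5 and 1 for the 2-oxoglutarate genes, 1 and 6 for the hypoxia targets, 1 and 3 for the readers, 2 and 3 for the melanocyte markers and 0 and 1 of 5 for the fibroblast markers. The rise of EHMT2 was past the threshold in neither. ARID5B was past it, and lower, without the 4 libraries.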

How the data were processed

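RNA was sequenced from 18 libraries of 2 lines. The authors deposited expected counts per gene from RSEM 1.2.15 with Bowtie2 2.1.0 on hg38, as the submitters' processing notes name them, and between 5.85% and 13.4% of a library's values were not whole. The methods of the study name other tools and a mouse build, which do not match this table, and the sources differ on poly(A) selection or ribosomal depletion. Counts were rounded, filtered with filterByExpr, scaled by TMM and tested with edgeR 4.0.16 (quasi-likelihood, Benjamini-Hochberg), in 9 libraries per line within a line and in all 18 between lines. Depth was 23601156 to 62941462 counts (median 41955693). Alternatives used DESeq2 1.42.0, limma 3.58.1, other scalings and filters, an offset for GC content and length, a replicate block and left-out libraries. On simulated data for A366 in Mel92.1, 48 of 200 genes changed by 0.5 and 169 of 200 changed by 1 on the log2 scale were recovered, and for A366 in MP41 128 and 189. False calls were 3 and 13 in Mel92.1 and 7 and 14 in MP41. The simulated data held only these 200 changed genes and no trend with GC content or length. Recovery under the wide change of A366 in MP41, with 46.0% of genes past the threshold, was therefore not tested. Members and lists were chosen with earlier results of these data known. Named besides members were EHMT2, EHMT1 and, per list, genes past the threshold in the same direction with 2 or more treatments and up to 3 with the largest change. The closest match of 1 member in expression is not reported here.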

Additional observations from a re-analysis of the deposited data

How the results depend on the processing

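Under other settings, apart from left-out libraries, 942 values of a member kept their direction and their side of the threshold, 34 lost and 38 gained a call, and 75 changed sign. Counts of members stayed within 1.5 times of the main count in 113 cases and moved in 8. For A366 in MP41 the count was 4 of 9 with groups as labelled (32.8% of all genes past the threshold) and 4 with all 18 libraries in 1 fit (33.5%). For the line difference with A366 it was 5 with groups as labelled (49.4% of genes), 2 with DESeq2 (22.1%) and 8 with limma voom (58.7%). limma voom with groups as labelled, chosen after seeing the data, gave 6 for A366 in Mel92.1 (64.4% of genes), 5 for A366 against UNC0642 in Mel92.1 (58.0%) and 7 for the line difference with A366 (77.8%). The cause was not tested. Log2 values that changed sign follow by comparison. KDM7A was -0.11 for UNC0642 in Mel92.1 with library size as the only scaling. KDM4C was 0.10 for UNC0642 in Mel92.1 with limma voom and sample weights. KDM1A was 0.067, KDM4B 0.14 for UNC0642 in Mel92.1 with the GC and length offset. KDM1A was 0.067, KDM4B 0.13 for UNC0642 in Mel92.1 with that offset and the replicate block. KDM4C was 0.14 for UNC0642 in Mel92.1 with limma voom and groups as labelled. KDM1A was 0.0058, KDM3A 1.30, KDM4A 0.14 for A366 in Mel92.1 with groups as labelled. KDM7A was -0.067 for A366 in Mel92.1 without the 4 libraries. KDM4A was 0.048, PHF2 0.048 for A366 in Mel92.1 with limma voom and sample weights. KDM1A was 0.064, KDM3A 1.74, KDM4A 0.29 for A366 in Mel92.1 with limma voom and groups as labelled. KDM4B was 0.19, PHF2 0.020 for A366 in MP41 with groups as labelled. KDM4B was 0.33, PHF2 0.13 for A366 in MP41 with limma voom and groups as labelled. KDM1A was 0.043, KDM3B -0.10, JMJD1C 0.45, PHF2 -0.062, KDM7A 0.66 for A366 against UNC0642 in Mel92.1 with groups as labelled. KDM1A was 0.22, JMJD1C 0.11, KDM4B 0.16, KDM7A 0.21 for A366 against UNC0642 in Mel92.1 with library size as the only scaling. KDM3A was -0.045, JMJD1C 0.12 for A366 against UNC0642 in Mel92.1 with limma voom and sample weights. KDM3A was -0.069, KDM3B -0.084, KDM4A -0.037, PHF2 -0.026 for A366 against UNC0642 in Mel92.1 with the GC and length offset. KDM3A was -0.066, KDM3B -0.080, KDM4A -0.039, PHF2 -0.030 for A366 against UNC0642 in Mel92.1 with that offset and the replicate block. KDM1A was 0.076, KDM3B -0.19, JMJD1C 0.80, PHF2 -0.20, KDM7A 0.84 for A366 against UNC0642 in Mel92.1 with limma voom and groups as labelled. KDM4B was 0.22, PHF2 0.063 for A366 against UNC0642 in MP41 with groups as labelled. KDM7A was 0.10 for A366 against UNC0642 in MP41 with the GC and length offset. KDM7A was 0.10 for A366 against UNC0642 in MP41 with that offset and the replicate block. KDM4B was 0.36, PHF2 0.19 for A366 against UNC0642 in MP41 with limma voom and groups as labelled. KDM4A was -0.088 for the lines with DMSO with library size as the only scaling. KDM4B was -0.0037 for the line difference with UNC0642 with DESeq2. KDM4B was -0.23, KDM4C -0.089 for the line difference with UNC0642 with library size as the only scaling. KDM3B was 0.021, KDM4A 0.023, KDM4B -0.022 for the line difference with UNC0642 with limma voom and sample weights. KDM1A was 0.081, KDM3B 0.14, KDM4A 0.057 for the line difference with UNC0642 with the GC and length offset. KDM1A was 0.080, KDM3B 0.14, KDM4A 0.057, PHF2 0.0022 for the line difference with UNC0642 with that offset and the replicate block. KDM3B was 0.033, KDM4A 0.031, KDM4B -0.019 for the line difference with UNC0642 with limma voom and groups as labelled. KDM4A was 0.025, PHF2 -0.30 for the line difference with A366 with groups as labelled. KDM4B was 0.053 for the line difference with A366 with library size as the only scaling. KDM4B was 0.065 for the line difference with A366 with the GC and length offset. KDM4B was 0.066 for the line difference with A366 with that offset and the replicate block. KDM3B was -0.0015, KDM4A 0.23, PHF2 -0.46 for the line difference with A366 with limma voom and groups as labelled.

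Leaving out 1 library at a time gave 3 to 8 members for A366 against UNC0642 in MP41 and 0 to 4 for the line difference with A366. For UNC0642 in Mel92.1, KDM4B then ran from -0.10 to 0.026, KDM4C from -0.52 to 0.19 and KDM7A from -0.078 to 0.40. For A366 in Mel92.1, JMJD1C then ran from -0.011 to 0.32, KDM4A from -0.15 to 0.016 and KDM7A from -0.11 to 0.37. For UNC0642 in MP41, KDM1A then ran from -0.00070 to 0.060, KDM3A from -0.074 to 0.018, KDM4B from -0.081 to 0.026 and PHF2 from -0.13 to 0.025. For A366 against UNC0642 in Mel92.1, KDM1A then ran from -0.029 to 0.0040, KDM3A from -0.11 to 0.17, KDM3B from -0.041 to 0.14, JMJD1C from -0.34 to 0.046, KDM4A from -0.0073 to 0.15, KDM4C from -0.050 to 0.67 and KDM7A from -0.21 to 0.072. For the line difference with UNC0642, KDM3B then ran from -0.15 to 0.10, KDM4A from -0.16 to 0.025, KDM4B from -0.060 to 0.058 and KDM4C from -0.36 to 0.34. For the line difference with A366, KDM4B then ran from -0.12 to 0.0021 and PHF2 from -0.021 to 0.15.

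Same-numbered libraries of different treatments correlated in their deviations by -0.43 to 0.59 in Mel92.1 and by -0.14 to 0.24 in MP41, so the replicate numbers were not taken to pair them. The replicate block changed 0 of 81 member calls and 0 of 9 counts. Depth limits the scarce members most.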

Other observations

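After the mean of each line was subtracted, the genes whose log2 CPM followed a member most closely over the 18 libraries were ranked among 10957 genes, as a description. KDM3A was nearest to XPO4, PER3 and RBM12 (Pearson's r 0.98 each), KDM3B to LDOC1L (0.98), UBE3C (0.97) and PRPF8 (0.97), and JMJD1C to IGF2BP3 (0.98), AFF1 (0.98) and ZBTB11 (0.97). KDM7A was nearest to SLC8A1 (0.94) and KDM1A to NSUN2 (0.93). The best matches of PHF2 (SLC39A14, 0.88), KDM4A (PANK1, 0.87) and KDM4B (PRKAG2, 0.86) were looser. Among the members, KDM3A and KDM3B went together most (0.89), followed by KDM1A and KDM3A (0.81) and by KDM3B and PHF2 (0.80), while KDM4A stood between -0.29 and 0.23 with the others. These values share libraries, treatment groups and depth.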
